A study of Mus musculus with 7 samples.

Results

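The cytosolic ribosomal proteins were taken as every array probe whose annotated gene symbol begins with Rpl or Rps and a digit, or with Rplp and a digit, leaving out the Rps6k kinases and symbols of pseudogenes. This gave 90 of the 23978 probes, for 73 of the 14740 annotated genes, and 82 probes of 72 genes lay far enough above background to be tested. Tumours had been raised by injecting J558 cells, an IgA-secreting mouse myeloma line, under the skin at the back of the neck of male BALB/c mice. The labels give the mice an age of 10 weeks, while the authors describe younger mice at injection. In the OPP group the only drink for 4 weeks was an extract of oil palm phenolics at 1500 ppm gallic acid equivalents (3 arrays), and in the control group it was distilled water (4 arrays). Mice of both groups ate the same standard chow and bore the same cell line, and total tumour RNA was hybridised to a single-colour mouse BeadChip. The labels do not say that each array holds a separate mouse, so p-values measure the spread between these RNA samples.

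A ribosome is built from ribosomal RNA and a set of proteins, most of which are needed in equal number. The small subunit reads the messenger RNA and matches it with transfer RNA, the large subunit joins the amino acids and holds the exit tunnel, and the acidic stalk on the large subunit recruits the elongation factors. Plasma cells and the myelomas that arise from them secrete large amounts of antibody, and dividing tumour cells must also make new ribosomes. Messenger RNAs of ribosomal proteins typically start with a C followed by a run of pyrimidines, the terminal oligopyrimidine (TOP) motif, through which mTOR controls their translation. An array measures the amount of RNA and not its translation.

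The sequences around the transcription start were therefore read for the member genes from the RefSeq promoter table (mouse build GRCm38.p6), which held 70 start windows for 59 of the 73 genes. Those printed are for the 5 genes whose OPP and control arrays did not overlap (Rpl14, Rps23, Rpl6, Rpl12 and Rpl3l) and the 2 others with an unadjusted p below 0.05 (Rps15a and Rps19bp1). Each covers 15 bases before and 15 after the annotated start, 5′ to 3′, and capitals mark the longest run of 5 or more C and T that begins with C.
Rpl14 (chr9:120571502-120571531, plus strand): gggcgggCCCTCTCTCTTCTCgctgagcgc
Rps15a (chr7:118116133-118116162, minus strand): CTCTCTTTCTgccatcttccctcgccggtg
Rps23 (chr13:90923107-90923136, plus strand): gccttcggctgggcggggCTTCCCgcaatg
Rpl6 (chr5:121204486-121204515, plus strand): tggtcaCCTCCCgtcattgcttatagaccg
Rpl12 (chr2:32961697-32961726, plus strand): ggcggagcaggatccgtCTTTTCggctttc
Rps19bp1 (chr15:80264292-80264321, minus strand): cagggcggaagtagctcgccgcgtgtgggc
Rpl3l (chr17:24727811-24727840, plus strand): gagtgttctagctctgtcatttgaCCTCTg
The tract stood in Rpl14, whose signal was higher in OPP tumours. It also stood in Rps15a, Rps23, Rpl6, Rpl12 and the window printed for Rpl3l, genes whose signals were lower in OPP tumours. Rps19bp1, which is not a ribosomal subunit, had none in its window. Rpl3l has a second annotated start (chr17:24732670-24732699, plus strand), whose window held no such tract.

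Such a tract lay within 57.4% of the 61 windows of the 52 genes that encode ribosomal proteins proper, against 36.8% of 21262 windows of all protein-coding genes. For 7 paralogues and related genes it lay within 44.4% of 9 windows. In the full promoter windows, which reach from 250 bases before to 50 bases after the start, the motif CCGGAAG on either strand was found in 37.7% of the ribosomal protein windows and in 11.6% of all windows. The motif AAGATGGC on either strand was found in 11.5% of the ribosomal protein windows and 3.05% of all windows, and GGGCGG on either strand in 60.7% of the ribosomal protein windows and 46.2% of all windows. The TATA motif TATAAA on either strand was found in 9.84% of the ribosomal protein windows and 12.6% of all windows. These shares describe letters at annotated starts, which can lie some bases away from the starts used in the tumours.

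Between 10643 and 11258 probes per array lay above the detection limit, and the limits were signals of 20.7 to 26.7. All 9 plasma cell markers on the array were above the limit on all arrays of at least 1 group, with summed signals of 50180 to 55585 in OPP tumours and 50362 to 54608 in control tumours. Of 10366 tested probes, 0 (0%) passed an adjusted p under 0.05 in the limma fit, the smallest adjusted p being 0.11, and 970 (9.36%) had an unadjusted p below 0.05. The methods' t-test also called 0 after adjustment. OPP replicate 3 had the lowest weight in a fit with array weights (0.62, against 0.81 to 1.54), and control replicate 1 was the lowest array on more of the bright member probes than any other, so counts are also given without both. The arrays were normalised to each other by rank-invariant probes, so a change shared by nearly all probes would not be seen. In a whole tumour, fewer cells that carry an RNA and less of that RNA per cell cannot be told apart.

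The ribosomal protein probes differed little between OPP and control tumours. Of the 82 probes, 42 had a log2 change above 0 and 40 below 0, with a median of 0.0025, beside a median of 0.0077 over all tested probes. With the unadjusted p below 0.05, Rpl14 and Rps19bp1 stood higher in OPP tumours and Rpl3l and Rps15a lower, 4 probes or 4.88% of the members beside the 9.36% of all tested probes, and over all tested probes 5.81% were higher and 3.55% were lower. Rpl3l and Rps15a had passed the detection filter only through the control arrays, where they were high, so their lower signals are a description, and with detection asked of all arrays 2 probes were higher and 0 lower. After adjustment over all probes 0 of the 82 passed, with a smallest adjusted p of 0.349. Under median scaling 1 was higher and 4 were lower, and under quantile normalization 2 were higher and 3 were lower. Without OPP replicate 3 and control replicate 1 together, 1 was higher and 1 was lower. The share of all probes with an unadjusted p below 0.05 was 9.02% with detection on all arrays and 9.04% under median scaling. It was 9.33% under quantile normalization and 9.54% without both arrays. On 1 probe all OPP arrays stood above all control arrays (5.9% of all tested probes did so) and on 4 probes all OPP arrays stood below (3.79% of all).

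Of these 82 probes, 74 belonged to 65 genes for ribosomal proteins proper and 8 to 7 paralogues or related genes that share the symbols. Among the 74 probes, 1 was higher and 1 was lower by the unadjusted p, beside 5.81% and 3.55% of all tested probes. The lower one was Rps15a, which entered the fit only through the control arrays. The changes of the 74 ran from -0.71 to 0.36 with a median of 0.0042. The middle of the distribution was narrow, with quartiles of the log2 change of -0.05 and 0.08 over the 82 member probes and of -0.12 and 0.14 over all tested probes. The 95% interval of the change lay within 1.5-fold in either direction for 77 of the 82 probes (93.9%), against 65.7% of all tested probes.

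**Figure D1:**
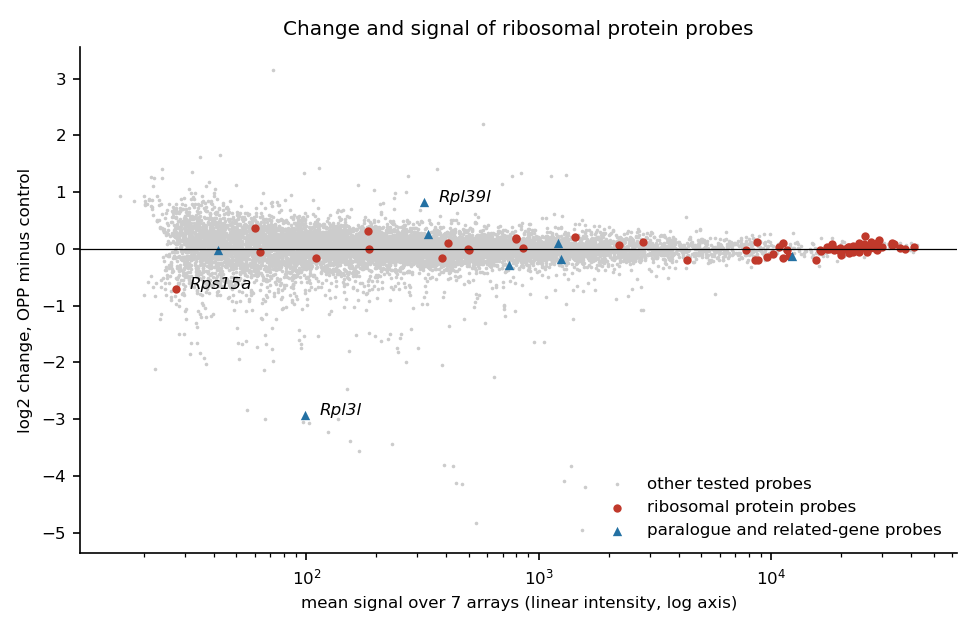
Log2 change (OPP minus control) of each tested probe against its mean signal over the 7 arrays, on a log axis of linear intensity, with probes of ribosomal proteins as circles, of paralogues and related genes as triangles and other probes as grey dots. Most circles lie at the bright end and near 0, while Rpl3l at -2.92, Rps15a at -0.71 and Rpl39l at 0.83 lie apart at low signals.

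Brightness went with the narrow spread. Of the 82 member probes, 53 had a mean signal of 10000 or more, and only 109 other probes on the array were that bright. Among these 53, 0 had an unadjusted p below 0.05, beside 0.917% of the 109 other bright probes. The median SD of the log2 signal over the 7 arrays was 0.085, beside 0.105 for the 109 others. Among the 18 member probes with a mean signal under 1000, 4 (22.2%) had an unadjusted p below 0.05, beside 10.5% of 8399 other dim probes, and the median SD was 0.207, beside 0.219. Of these 4 probes, 2 were Rpl3l and Rps15a, which had passed the detection filter only through the control arrays. All 4 member probes with an unadjusted p below 0.05 were thus dim ones. A signal depends on the probe as well as on the RNA, so the order of signals is not an order of expression between genes. Whether a ceiling of the scanner narrowed the spread of the bright probes was not tested.

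The large subunit was represented by 45 tested probes of 39 genes. Of these, 1 was higher and 0 were lower by the unadjusted p, beside 5.81% and 3.55% of all tested probes. Their changes ran from -0.19 to 0.36 with a median of 0.0046, and for 44 of the 45 the 95% interval lay within 1.5-fold. Rpl14, a protein of the large subunit, had signals of 215.6, 196.8 and 209.8 on the OPP arrays, against 169.8, 179.7, 161.6 and 157.4 on the control arrays. Every OPP array was above every control array. Its log2 change was 0.31 (SE 0.09, adjusted p = 0.415 in the limma fit), and p was 0.0571 in the exact two-sided permutation test, the lower bound for 35 splits of 3 and 4 arrays.

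**Figure D2:**
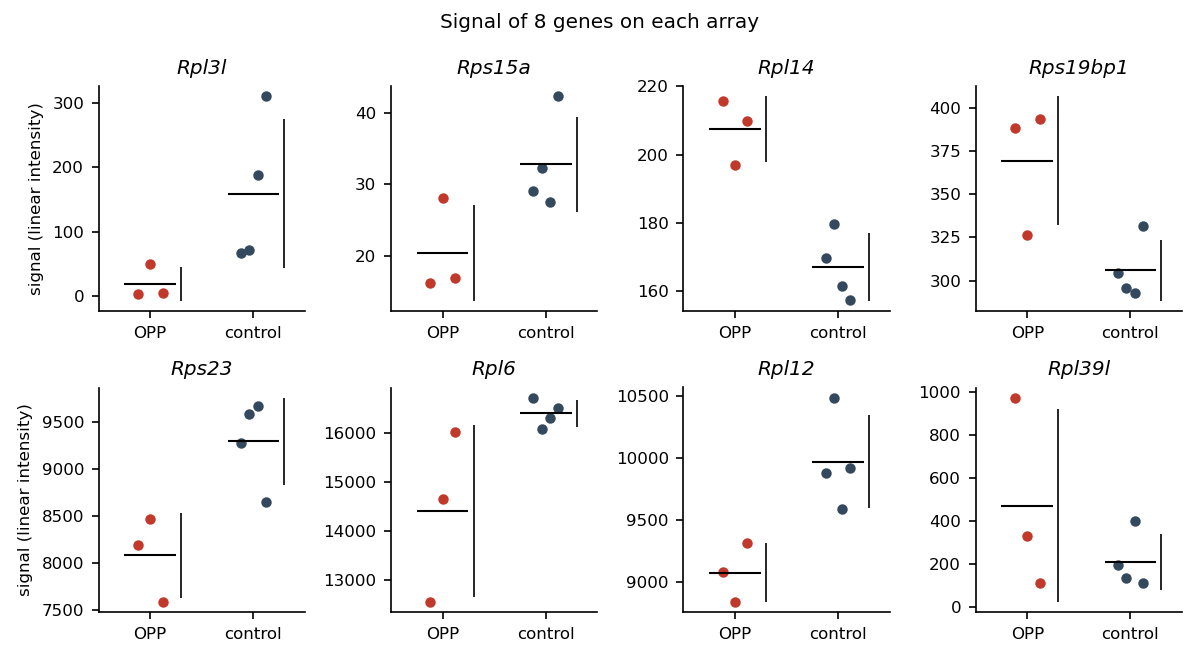
Signal (linear intensity, axes not starting at 0) of 8 genes on each array, with OPP left of control, a horizontal line at each group mean and a vertical line of 1 SD to each side. The groups do not overlap for Rpl3l, Rpl14, Rps23, Rpl6 and Rpl12, while they overlap for Rps15a, Rps19bp1 and Rpl39l.

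After Rpl14, the higher large-subunit genes with the smallest p overlapped between the groups. Rpl15 had 25034.1, 28533.3 and 29136.9 in OPP tumours, against 25559.1, 22162.4, 25213.2 and 22082.4 in control tumours (log2 change 0.22, SE 0.11, adjusted p = 0.565). Rpl31, which lies at the mouth of the exit tunnel, had 873.9, 781.2 and 896.9 in OPP tumours, against 763.6, 802.3, 778.0 and 681.5 in control tumours (0.17, SE 0.10). In both genes 1 OPP array lay inside the range of the control arrays. Rpl29 had a dim probe, at 69.0 ± 18.5 in OPP tumours and 53.2 ± 11.2 in control tumours (0.36, SE 0.23). Rpl13a, known in human cells for a role in interferon-triggered translational silencing apart from the ribosome, averaged 2950 ± 201 in OPP tumours and 2719 ± 79 in control tumours (SD, n = 3 and 4 arrays, log2 change 0.12, SE 0.09).

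Of the large-subunit genes, 2 had every OPP array below every control array, as had 3.79% of all tested probes, without passing the test. Rpl6 had 12553.6, 14658.6 and 16028.5 in OPP tumours, against 16716.2, 16074.0, 16297.1 and 16506.0 in control tumours. The control arrays lay close together and the OPP arrays were spread out, with OPP replicate 1 the lowest, and the log2 change of -0.19 (SE 0.10, adjusted p = 0.599) became -0.10 without OPP replicate 1. Rpl12, which sits at the base of the stalk, had 9076.0, 8833.8 and 9309.7 in OPP tumours, against 9882.6, 10488.8, 9591.8 and 9923.3 in control tumours. Its log2 change was -0.14 (SE 0.08, adjusted p = 0.638), so the separation was complete but small. Rpl36 had 8079.9, 8648.5 and 6903.9 in OPP tumours, against 7999.2, 8930.6, 9690.6 and 9373.8 in control tumours, with overlapping groups (-0.19, SE 0.12).

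Rpl5 and Rpl11 form a complex with 5S ribosomal RNA that also binds the p53 regulator Mdm2, and Rpl23 binds Mdm2 as well. Rpl5 had 24972.1, 27053.3 and 21865.4 in OPP tumours, against 21508.8, 23270.0, 25664.3 and 26343.3 in control tumours. Rpl11 had 23059.0, 23872.3 and 21705.5 in OPP tumours, against 20871.9, 23450.4, 24432.6 and 23626.0 in control tumours. The groups overlapped in both, and the log2 changes were 0.02 (95% interval -0.25 to 0.30) for Rpl5 and -0.01 (-0.23 to 0.21) for Rpl11. Rpl23 averaged 36206 ± 2170 in OPP tumours and 35655 ± 2268 in control tumours, a log2 change of 0.02 (-0.20 to 0.25).

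The 5 brightest member genes were Rpl24, Rps14, Rpl23, Rpl41 and Rplp1. Rpl24, which reaches across to the small subunit, had 42237.7, 40154.9 and 42049.5 in OPP tumours, against 40041.4, 40972.2, 41727.0 and 39531.8 in control tumours. These signals were between 81.7% and 100% of the highest signal on their arrays, and whether they reached a ceiling of the scanner was not tested. Rpl41, which encodes one of the shortest proteins known, averaged 34860 ± 2791 in OPP tumours and 32796 ± 669 in control tumours (log2 change 0.09, SE 0.09). Rps14, a small-subunit protein whose loss in humans is linked to the 5q- form of myelodysplasia, had 37257.4, 42486.0 and 32487.3 in OPP tumours, against 35000.6, 40359.9, 38157.7 and 36977.0 in control tumours. The OPP arrays thus held both the highest and the lowest value, and the log2 change was -0.01 (SE 0.12).

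**Figure D3:**
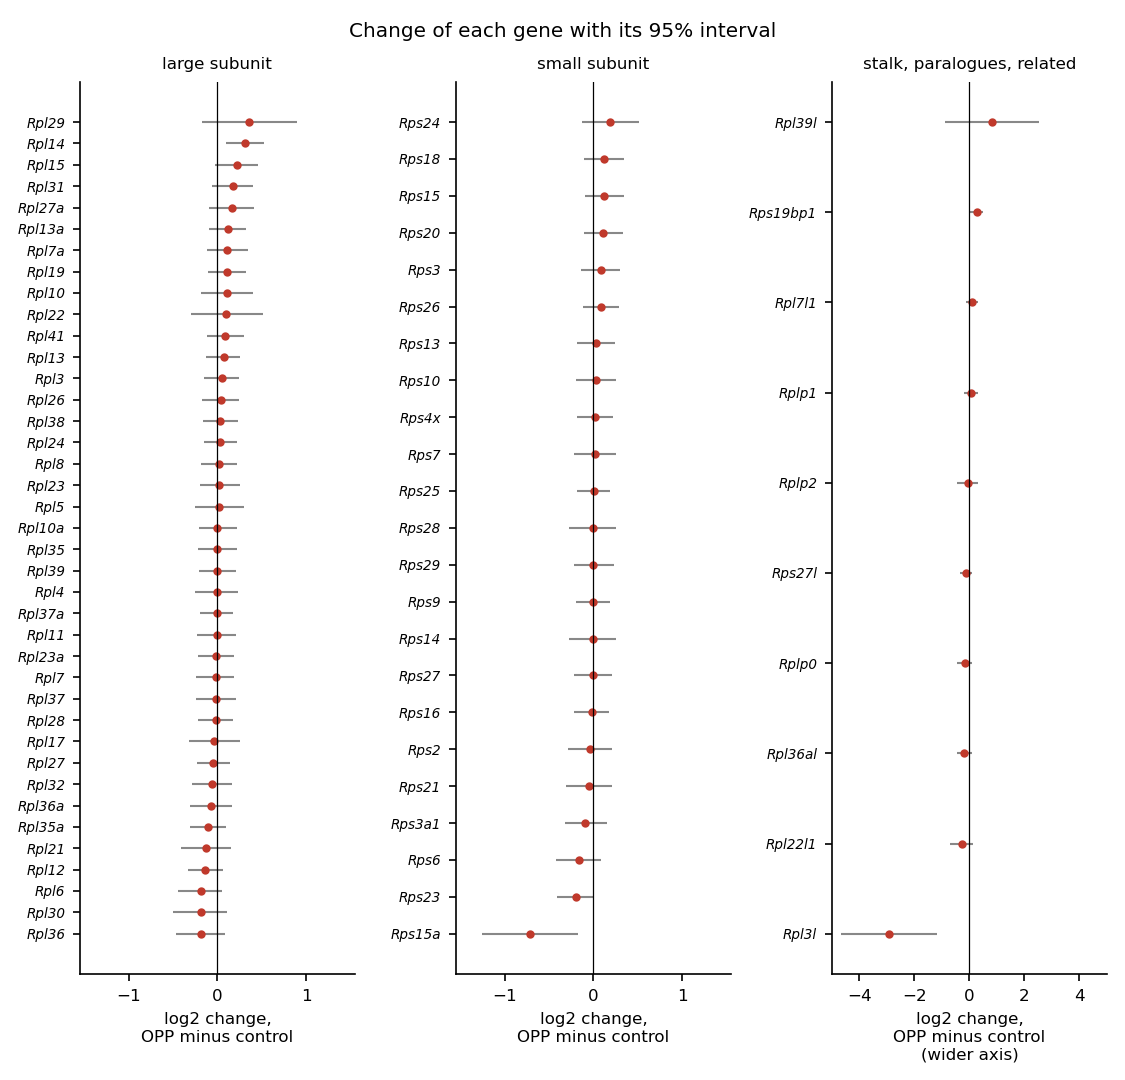
Log2 change (OPP minus control) of the brightest tested probe of each gene as a point with its 95% interval from the limma fit as a line, for the large subunit, the small subunit and, on a wider axis, the stalk proteins, paralogues and related genes. Most intervals of subunit proteins cross 0, while those of Rpl14, Rps15a, Rps19bp1 and Rpl3l do not, and those of Rpl3l and Rpl39l are the widest shown. The probes of Rps15a and Rpl3l entered the fit only through the control arrays, so their intervals are a description and not a test.

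The small subunit was represented by 26 tested probes of 23 genes, with 0 higher and 1 lower by the unadjusted p. Over all tested probes 5.81% were higher and 3.55% were lower. The lower probe, of Rps15a, entered the fit only through the control arrays, so its change is a description. The changes ran from -0.71 to 0.19 around a median of 0.0046, and for 25 of the 26 the 95% interval lay within 1.5-fold. Rps15a, a protein of the small subunit, had 16.2, 28.1 and 16.9 in OPP tumours, against 29.1, 32.3, 27.5 and 42.3 in control tumours. Of the 3 OPP arrays only replicate 2 was above the detection limit, and it lay inside the control range, so the log2 change of -0.71 (SE 0.23) rests on signals at the edge of detection. With all signals under 50 set to 50 the change was -0.0000.

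Rps23, which lines the decoding centre, had 8196.6, 8473.1 and 7586.4 in OPP tumours, against 9273.2, 9582.5, 9675.6 and 8651.3 in control tumours. All OPP arrays were below all control arrays, with a log2 change of -0.20 (SE 0.09, adjusted p = 0.536, exact permutation p = 0.0571). Rps24 lay the other way with overlap, at 750.5, 845.6 and 971.1 in OPP tumours, against 822.7, 629.3, 726.2 and 825.8 in control tumours (0.19, SE 0.14). Rps6, whose phosphorylation is a usual sign of mTOR activity, had 11666.9, 10478.0 and 9501.4 in OPP tumours, against 10553.4, 12156.1, 12621.4 and 11818.0 in control tumours, a log2 change of -0.16 with overlap. Rps6 was named after its values were seen.

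Rps19, the gene most often mutated in Diamond-Blackfan anaemia in humans, was the member gene that could not be tested. Its probe had 16.5, 31.7 and 21.6 in OPP tumours, against 22.9, 15.8, 19.2 and 9.7 in control tumours. The signals lay around the detection limit and overlapped, so no fold is given. A further 7 probes did not pass the filter, 2 for Rpl21, 2 for Rpl37 and 1 each for Rpl23, Rpl38 and Rplp0, and each of these genes had another probe that was tested.

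Several further members with known roles of their own also overlapped between the groups, and they were named after their values were seen. Rpl38, which favours translation of Hox messenger RNAs in mouse embryos, had 29873.7, 31668.1 and 29949.8 in OPP tumours, against 29533.7, 28713.5, 31504.4 and 29463.6 in control tumours (log2 change 0.03, SE 0.08). Rpl10, mutated in some human T-cell leukaemias, had 26707.8, 33837.7 and 28473.0 in OPP tumours, against 23902.0, 28065.3, 30074.5 and 27725.2 in control tumours (0.11, SE 0.12). Rps25, needed for initiation at some viral internal ribosome entry sites, had 26245.5, 26693.1 and 27230.7 in OPP tumours, against 26162.0, 25777.7, 27243.0 and 27331.4 in control tumours (0.01, SE 0.08). The spread between arrays of one group was as wide as the difference between the groups or wider in each of these. Rpl30 had 4453.5, 3700.8 and 3861.4 in OPP tumours, against 3844.0, 4527.7, 5177.4 and 4835.4 in control tumours (-0.19, SE 0.13), where OPP replicate 1 and control replicate 1 crossed the order of the groups.

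The stalk proteins differed little. Rplp0, the stalk's anchor on the large subunit, had 303.2, 384.8 and 395.3 in OPP tumours, against 391.2, 419.7, 376.6 and 420.2 in control tumours (log2 change -0.16, SE 0.12). OPP replicate 1 was the lowest, and without it the change was -0.04. Rplp1 had 31439.4, 38440.5 and 32352.7 in OPP tumours, against 30269.7, 31182.9, 32993.1 and 35271.2 in control tumours (0.07, SE 0.11). Rplp2, its partner in the stalk, averaged 62.1 ± 11.3 in OPP tumours and 64.4 ± 9.14 in control tumours (-0.06, SE 0.16). Rplp1 and Rplp2 pair with each other in the ribosome, and the difference in brightness of their probes says nothing of their amounts.

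The paralogues and related genes had a median absolute log2 change of 0.22 over 8 probes, beside 0.05 over the 74 probes of ribosomal proteins proper and 0.13 over all tested probes. The difference was not tested, and most of these 8 probes were dim or of middle brightness, where the median over dim members was 0.17 and over other dim probes 0.15. Rpl3l, which takes the place of Rpl3 in skeletal and heart muscle, had signals of 3.1, 49.5 and 5.4 on the OPP arrays, against 66.6, 71.6, 187.9 and 310.0 on the control arrays. All OPP arrays were below all control arrays, and 1 of 3 OPP arrays and 4 of 4 control arrays were above the detection limit. The probe entered the fit only through the control arrays, so its change is given with no p, and the log2 change of -2.92 (SE 0.74) depends on the floor of 10 that replaced the lower signals, and with a floor of 50 it was -1.37. Its parent gene Rpl3, which lies at the peptidyl transferase centre, had 23062.1, 23218.2 and 22708.8 in OPP tumours, against 21826.7, 21318.0, 22874.7 and 23161.5 in control tumours (log2 change 0.05, SE 0.08).

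Rpl3l moved array by array with the markers of skeletal muscle. The 14 muscle markers on the array summed to 152, 5266 and 795 in OPP tumours, against 7456, 10756, 19124 and 31563 in control tumours, and the 7 arrays stood in the same order for this sum and for Rpl3l. On OPP replicates 1 and 3 the Rpl3l signals of 3.1 and 5.4 were below the detection limit, so the order of these arrays in Rpl3l is not reliable. On the OPP arrays 3, 13 and 9 of the 14 markers were above the detection limit, and on each control array all 14 were. Most of the 14 thus entered the fit only through the control arrays, where they were high, so their count is a description and not a test. Of the 14, 13 were lower in OPP tumours by the unadjusted p, beside 3.55% of all tested probes, and 0 passed the adjusted threshold. Their median log2 change was -3.69, which depends on the floor of 10. Mybpc1, a myosin-binding protein of muscle, was not well above background on any OPP array and was at least 1.89-fold higher in control tumours. Its probe entered the fit only through the control arrays, so its change is given with no p. The log2 change of Mybpc1 was -2.12, and with a floor of 50 it was -0.11. Actn2, an actinin of the muscle Z-disc, averaged 30.8 ± 39.9 in OPP tumours and 217 ± 93.1 in control tumours. Markers of other cell types, with plasma cells, the type from which myelomas arise, among them, went both ways. The median log2 change was below 0 for adipocytes, T and NK cells, macrophages (-0.24), fibroblasts (-0.19) and plasma cells (-0.07). It was above 0 for endothelium (0.19) and red blood cells (0.15, from 2 genes at -0.06 and 0.35). Adipocyte markers summed to 288, 558 and 756 in OPP tumours, against 676, 1094, 2522 and 2533 in control tumours, and both tested ones were lower by the unadjusted p, with a median log2 change of -1.56. Markers of T and NK cells summed to 1974, 1674 and 691 in OPP tumours, against 1018, 2936, 2373 and 2643 in control tumours, with a median of -1.54 over 5 tested genes, 0 of them past the unadjusted threshold. The groups overlapped in the adipocyte sum and in the T and NK cell sum. The part of muscle or other tissue in the Rpl3l signal was not tested.

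**Figure D4:**
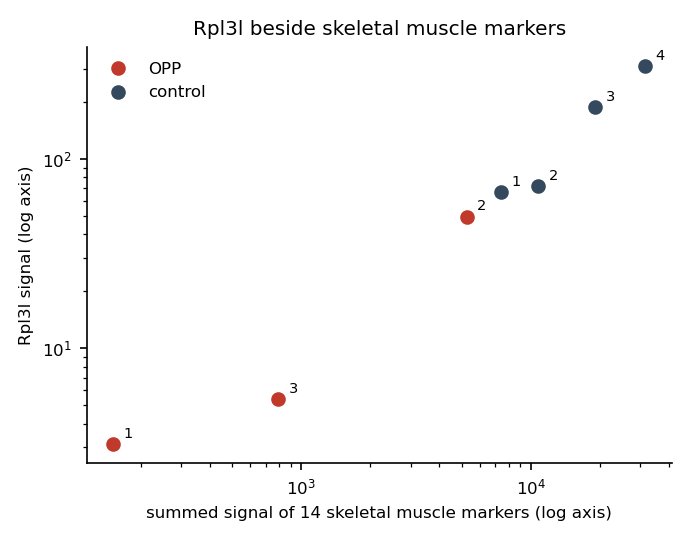
Signal of Rpl3l against the summed signal of 14 skeletal muscle markers on each array, both on log axes of linear intensity, with the replicate number beside each point and OPP and control in different colours. The arrays stand in the same order on both axes, from OPP replicate 1 at 152 and 3.1 to control replicate 4 at 31563 and 310.0. The Rpl3l signals of OPP replicates 1 and 3 are below the detection limit, so their order is not reliable.

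The 250 bases before the upstream annotated start of Rpl3l (RefSeq, GRCm38.p6, chr17:24727576-24727825, plus strand) are shown because this gene had the largest fitted change among the tested members, with capitals marking the motif CAGCTG.
Rpl3l: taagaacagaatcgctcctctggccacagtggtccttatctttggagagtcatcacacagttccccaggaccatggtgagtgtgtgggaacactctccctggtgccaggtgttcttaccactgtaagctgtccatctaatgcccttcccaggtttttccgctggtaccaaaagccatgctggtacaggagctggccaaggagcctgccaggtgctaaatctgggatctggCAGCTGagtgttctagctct
CAGCTG is a form of the E-box that the muscle factor MyoD can bind, and it reads the same on both strands. Its shares were counted in the full promoter windows, which also take in the 50 bases after the start. There it was found in 15.6% of the windows of all protein-coding genes and in 3.28% of the windows of ribosomal proteins proper. The 250 bases before the second annotated start of Rpl3l held none.

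Rpl39l, known as a paralogue of Rpl39 in male germ cells, was the most variable of the other paralogues. Its signals were 973.0, 330.3 and 111.3 in OPP tumours, against 195.2, 133.8, 399.9 and 112.4 in control tumours, so that the OPP arrays held both the highest and the lowest value. The log2 change of 0.83 had an SE of 0.73 and a 95% interval of -0.88 to 2.54, and it was 0.05 without OPP replicate 1 and 1.61 without OPP replicate 3. Rpl39 itself, which lines the exit tunnel, had 19916.8, 21071.8 and 18738.8 in OPP tumours, against 18880.4, 19164.0, 21026.9 and 20489.5 in control tumours, a log2 change of 0.00 (SE 0.09).

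Rps19bp1, whose product binds Rps19 and regulates the deacetylase Sirt1, had 388.2, 326.5 and 393.4 in OPP tumours, against 304.3, 295.5, 292.7 and 331.3 in control tumours. OPP replicate 2 lay below control replicate 4, and the log2 change was 0.27 (SE 0.10, adjusted p = 0.502, exact permutation p = 0.114). Rpl22l1 had 714.0, 710.5 and 552.8 in OPP tumours, against 604.5, 915.9, 912.4 and 788.9 in control tumours (-0.28, SE 0.18). Its parent Rpl22 had 367.7, 452.3 and 440.6 in OPP tumours, against 401.8, 289.0, 436.3 and 453.7 in control tumours (0.10, SE 0.17), and the groups overlapped for both genes.

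Rps27l, a p53-induced paralogue of Rps27 in human cells, had 11105.2, 11999.2 and 12136.6 in OPP tumours, against 12391.2, 13467.8, 13476.5 and 11832.9 in control tumours (log2 change -0.12, SE 0.09). Rps27 averaged 18822 ± 1283 in OPP tumours and 18897 ± 982 in control tumours (-0.01, SE 0.09). Rpl36al averaged 1162 ± 122 in OPP tumours and 1316 ± 122 in control tumours (-0.18, SE 0.12), and its X-linked parent Rpl36a averaged 20900 ± 855 in OPP tumours and 22027 ± 2027 in control tumours (-0.07, SE 0.10). Rpl7l1, related to a yeast factor of large-subunit assembly, averaged 1263 ± 104 in OPP tumours and 1177 ± 62.7 in control tumours (0.10, SE 0.10), and Rpl7 had a log2 change of -0.02. Ribosomal protein genes have many near-identical processed copies in the mouse genome, and the probes' sequences were not used here, so cross-hybridisation between copies and paralogues was not tested.

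Arrays of one group differed among themselves on the bright probes. Of the 53 bright member probes, 22 (41.5%) had their highest signal on OPP replicate 2, 13 (24.5%) on control replicate 3 and 1 on control replicate 1. The lowest signal fell on control replicate 1 for 19 probes (35.8%) and on OPP replicate 3 for 14 (26.4%). Among the 109 other bright probes, 39.4% had their highest signal on OPP replicate 2 and 25.7% their lowest on control replicate 1. OPP replicate 2 also had the highest maximum of all arrays, at 49139.0, beside 41727.0 to 44510.7 on the others. Both groups thus held an array with high and an array with low bright signals.

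**Figure D5:**
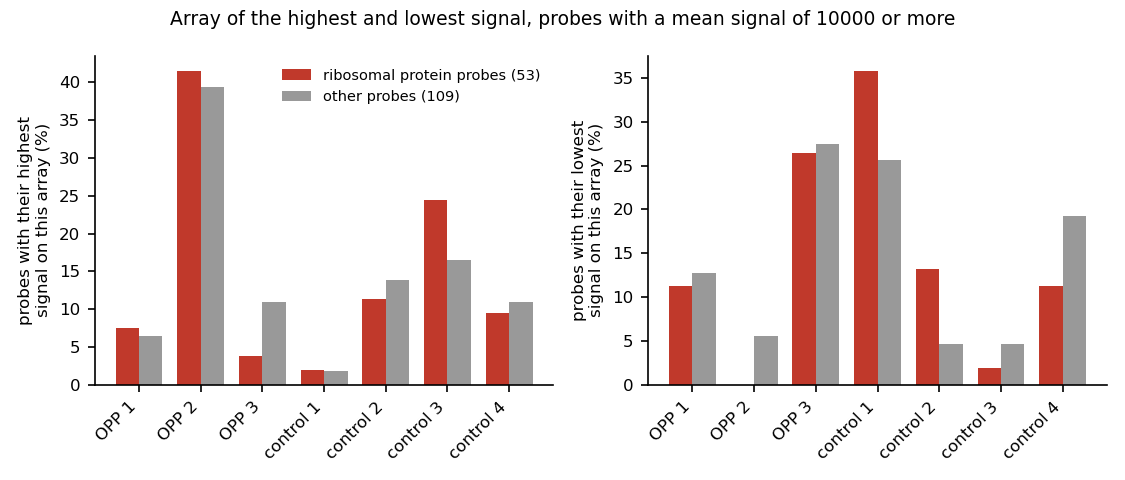
Share (%) of probes with a mean signal of 10000 or more whose highest (left) or lowest (right) signal fell on each array, for 53 ribosomal protein probes and 109 other probes, with the OPP arrays left of the control arrays. OPP replicate 2 holds the highest signal of 41.5% of the ribosomal protein probes and of 39.4% of the other probes, and control replicate 1 the lowest of 35.8% and 25.7%.

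For 8 genes more than 1 probe was tested, and the median difference between a gene's probes in log2 change was 0.05. The probes were furthest apart for Rpl27a, with changes of 0.16 and 0.21 on the brighter probes and -0.16 on the dimmest. The dimmest had 123.4, 85.0 and 101.5 in OPP tumours, against 118.4, 134.3, 120.4 and 89.2 in control tumours, and the brightest had 29880.4, 34707.3 and 28539.1 in OPP tumours, against 25182.2, 27473.2, 29276.6 and 29137.5 in control tumours. The 3 probes of Rps9 gave -0.03 to 0.04, the 2 of Rpl7l1 -0.02 and 0.10, and the 2 of Rpl13a 0.06 and 0.12.

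Of the genes that encode ribosomal proteins under other symbols, 2 were on the array. Fau, whose product is cleaved to release the small-subunit protein S30, averaged 12980 ± 1591 in OPP tumours and 13708 ± 264 in control tumours (log2 change -0.09, SE 0.11), and Rpsa was below the detection limit on all arrays. By the unadjusted p, 5.81% of all tested probes were higher and 3.55% were lower. Among 16 tested genes for translation factors and other TOP messenger RNAs, 0 were higher and 1 was lower, with a median log2 change of -0.03. The lower one was Eif3e, a subunit of initiation factor eIF3, which averaged 974 ± 68.9 in OPP tumours and 1211 ± 108 in control tumours (-0.31, SE 0.11, adjusted p = 0.478). Among 21 other initiation factors 1 was higher and 0 were lower, with a median of 0.06. This was Eif4a2, an RNA helicase of the cap-binding complex, which averaged 1696 ± 257 in OPP tumours and 1237 ± 80.2 in control tumours (0.45, SE 0.12, adjusted p = 0.398).

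On the supply side of ribosomes few genes were called by the unadjusted p, as were few of all tested probes (5.81% higher and 3.55% lower). Whether these lists depart from those shares was not tested. Of 37 tested ribosome biogenesis genes 0 were higher and 1 was lower, with a median of -0.06, and the lower one was Polr1a, the largest subunit of RNA polymerase I, at 900 ± 107 in OPP tumours and 1129 ± 141 in control tumours (log2 change -0.33, SE 0.14, adjusted p = 0.531). Of 12 genes of mTOR and Myc control 0 were higher and 0 were lower. Mtor itself had every OPP array below every control array, as had 3.79% of all tested probes. It averaged 178 ± 6.66 in OPP tumours and 193 ± 8.64 in control tumours (-0.12, SE 0.09). Of 68 tested genes for mitochondrial ribosomal proteins, which serve the separate ribosome of that organelle, 2 were higher (Mrps26 at 0.43 and Mrps23 at 0.21) and 1 was lower, with a median of 0.02. In all of these lists 0 genes passed the adjusted threshold in the limma fit.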

How the data were processed

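The values are intensities on a linear scale. With BeadStudio 1.5.1.3 the authors subtracted the background and normalised the arrays by the rank-invariant method after removing outlier samples by clustering, and these intensities were used as deposited. Samples of high RNA integrity had been selected before hybridisation. A second deposited table of signals before normalization, with 14 columns whose names match no sample, was not used here. Of 24048 rows, 66 without a value and 4 control probes were left out, which left 23978 probes, and the platform annotation gave 19343 of them a gene symbol. Signals under 10 were set to 10 and log2 was taken. The noise of an array was estimated from its negative values, and a probe was tested if it exceeded 2.33 SD of that noise on all arrays of at least 1 group. The 3 OPP and 4 control arrays were compared in limma 3.58.1 (lmFit, eBayes, R 4.3.3), two-sided, with Benjamini-Hochberg adjustment over the 10366 tested probes, and single genes also with an exact permutation test over the 35 splits (scipy 1.17.1). Intervals are 95% from the same fit, and the number of arrays limits their precision. Log2 changes are OPP minus control, and the brightest tested probe stands for a gene that has more than 1. Tables were handled with pandas 2.3.3 and figures drawn with matplotlib 3.10.9, in Python 3.11.15. The fit was checked on simulated data.

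Genes were named by a rule: the 8 higher and 8 lower genes with the smallest p, the stalk proteins, paralogues and related genes beside their parents, the 5 brightest genes, Rps19, Rpl5 and Rpl11, up to 4 genes whose probes lay furthest apart, and the 2 genes of smallest p from each list other than the cell type markers, of which only skeletal muscle genes were named. The members, lists and rules were chosen with earlier results of these data known. The lists were translation factors and other TOP messenger RNAs, other initiation factors, ribosome biogenesis, mTOR and Myc control, mitochondrial ribosomal proteins, ribosomal proteins under other symbols, and markers of plasma cells, skeletal muscle, adipocytes, T and NK cells, macrophages, fibroblasts, endothelium and red blood cells. Of the last 4, 0 genes had an unadjusted p below 0.05, with median log2 changes of -0.24, -0.19, 0.19 and 0.15. As alternatives, each array or both doubted ones were left out, the floor was raised to 50, the arrays were scaled to a common median or quantile normalised, the detection filter was dropped or asked of all arrays, and the variance prior was made trended and robust. Array weights, a replicate block, Student's t-test on the log2 signals and averaging over the probes of a gene were also tried.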

Additional observations from a re-analysis of the deposited data

Results flagged for a closer look

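Rpl23 on control replicate 1 had a signal of 32275.2, below 36687.4, 36523.6 and 37134.4 on the other control arrays. On the log2 scale the gap to the nearest of them was 0.882 of the range of the control group. Of 48 control groups checked this was the 1 set apart, and chance sets about 1 in 20 apart to this degree. The OPP group of 3 arrays is too small for the check. Without control replicate 1 the log2 change of Rpl23 was -0.02, beside 0.02 with it.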

How the results depend on the processing

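By the unadjusted p, 2 member probes stood higher and 2 lower, with a median log2 change of 0.0025. The 2 lower ones, Rpl3l and Rps15a, had entered only through the control arrays. The share of all probes with an unadjusted p below 0.05 was 9.36%. Over the settings below it ran from 4.99% without a detection filter to 11.7% without control replicate 1. Median scaling gave 1 higher, 4 lower and a median of -0.0500, where the median over all probes was -0.0448. There were 4 lower without a detection filter, with a trended and robust variance prior and with Student's t-test. There were 0 lower with detection on all arrays, which left out Rpl3l and Rps15a. Array weights gave 1 higher. Leaving out each array in turn gave 1 to 3 higher, 1 to 3 lower and a median of -0.0150 to 0.0322, and leaving out control replicate 1 and OPP replicate 3 together gave 1 higher and 1 lower. Without OPP replicate 1, 1 was lower, and without control replicate 1, 2 or 3, 1 was higher. Over all probes, adjusted calls numbered 0, and 2 under quantile normalization, 2 with a floor of 50, 1 with the trended and robust prior, 0 to 1 leaving out each array (1 without OPP replicate 2 and 1 without control replicate 4) and 1 without both arrays. Members made up 0 of these calls. The cause was not tested.

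With the replicate number as a replicate block, 0 members were higher and 2 lower, with a median of 0.0066 and 0 adjusted calls. Of all probes, 6.59% had an unadjusted p below 0.05 in that fit. The labels do not say that a number pairs samples, and deviations of same-numbered arrays correlated at -0.27, 0.08 and -0.17, so the samples share only a number.

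Single genes near 0 changed sign without passing a threshold. Quantile normalization gave 0.01 for Rps27, -0.0005 for Rpl24, -0.0012 for Rpl23 and 0.02 for Rps9. Median scaling gave -0.01 for Rpl3, -0.05 for Rpl39, -0.02 for Rpl24, -0.03 for Rpl23 and -0.03 for Rpl5. Array weights gave 0.02 for Rps27, 0.03 for Rps14 and 0.02 for Rps9, and averaging over the probes of each gene 0.0014 for Rps9. Leaving out both arrays gave 0.01 for Rps27, 0.05 for Rps14, 0.03 for Rps9 and 0.02 for Fau. Leaving out each array in turn gave ranges of -0.19 to 0.07 for Rplp2, -0.06 to 0.03 for Rps27, -0.05 to 0.03 for Rps9, -0.02 to 0.12 for Rplp1, -0.04 to 0.04 for Rpl39, -0.02 to 0.07 for Rpl23, -0.05 to 0.11 for Rpl5, -0.11 to 0.08 for Rps14, -0.06 to 0.03 for Rpl11, -0.14 to 0.02 for Fau, -0.04 to 0.20 for Rpl22 and -0.05 to 0.02 for Rpl7. Leaving out 1 array moved other uncalled changes by over 1.5 times, among them Rpl29 to 0.18 (without OPP replicate 2), Rps24 to 0.09, Rpl36 to -0.10 and Rpl22l1 to -0.16 (without OPP replicate 3). Signals near the detection limit, such as those of Rps15a and Rpl3l in OPP tumours, limit what can be read from their changes.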
